A study of Mus musculus with 6 samples.

Results

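The comparison concerns 2 CLIP-seq libraries from cortex of 1 genotype, Rosa-PTBP1; Emx1-cre, in which FLAG-tagged PTBP1 and the endogenous PTBP2 were each immunoprecipitated. Its members are the union sites of both deposited read lists: distinct read intervals (each position and strand counted once) that touched on 1 strand were merged across the FLAG and PTBP2 lists, on chromosomes 1 to 3 and 11 to 19, the 12 chromosomes filled in both. There were 41334 such sites, of 101264 obtained when all 6 libraries of the series were merged on these chromosomes. The FLAG library listed 22652 of them alone, the PTBP2 library 15160 alone, and both listed 3522. Levels could be compared at 1466 sites, those listed in both libraries with 20 or more distinct intervals together.

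PTBP1 and PTBP2 (polypyrimidine tract binding proteins) are paralogous RNA-binding proteins with the same arrangement of RNA recognition motifs, and both bind pyrimidine-rich RNA, mostly in introns and near exon borders, where they often repress the use of an exon. PTBP1 is abundant in neural progenitors and falls as neurons form, whereas PTBP2 rises in newborn neurons and falls again as they mature. PTBP1 also represses production of PTBP2 through splicing, so the proteins are seldom abundant in the same cell, and a transgene that keeps PTBP1 in the cortex lets both be read in 1 tissue.

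Cortex was taken on postnatal day 1 from mice of mixed BL6/129Sv background. The groups used are FLAG CLIP in Rosa-PTBP1; Emx1-cre (1 library), PTBP2 CLIP in Rosa-PTBP1; Emx1-cre (1 library), FLAG CLIP where PTBP2 loxp/loxp was added to Rosa-PTBP1; Emx1-Cre (1 library, FLAG loxP below), PTBP2 CLIP in wild type (1 library) and, as the background of the FLAG antibody, FLAG CLIP in wild type (replicates 1 and 2). The Emx1 promoter drives the Cre recombinase in progenitors of cortical excitatory neurons and their offspring, not in interneurons; the labels do not state whether FLAG-PTBP1 was limited to recombined cells, whereas the PTBP2 antibody reads PTBP2 of every cell. Fewer cells holding a transcript and less of it per cell cannot be told apart in such bulk libraries. Nuclear RNA was crosslinked with ultraviolet light at 400 mJ/cm2, immunoprecipitated, partly digested with micrococcal nuclease, and taken from the membrane between 80 and 110 kDa (FLAG-PTBP1 runs at 60 kDa, PTBP2 at 58 kDa). The genome build of the lists is mm9; the annotation at hand is of another build, so genes, exons and introns at the sites were not looked up, cell type markers were not checked, and no sequence was read at the sites.

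On the chromosomes used, the FLAG library held 223107 distinct intervals and the PTBP2 library 61697. Their median lengths were 31 and 40 bases. The FLAG loxP library held 154407, the PTBP2 wild-type library 93916, and the wild-type FLAG replicates 51141 and 17129. All intervals of both Rosa-PTBP1 FLAG libraries and of wild-type FLAG replicate 2 came from sequencing run WA047, and those of both PTBP2 libraries from runs XA041 and XB028, so antibody and run cannot be told apart in any FLAG against PTBP2 ratio below. Wild-type FLAG replicate 1 came mostly (94.8%) from XA041. With 1 library a group there is no replicate check: no p-value is given, and 95% intervals cover counting error only, which is too narrow because intervals of 1 site are not independent. Per their headers the lists hold significant CLIP reads, so reads that were not called significant are not seen, and a site listed at 0 gets no fold.

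Whether both proteins were listed at a site depended on how many intervals the site held. Of all 26512 sites built from the FLAG library alone, 14.5% (14.0 to 14.9) touched a PTBP2 site. Of all 19124 sites of the PTBP2 library 20.6% (20.1 to 21.2) touched a FLAG-PTBP1 site. FLAG loxP held an interval at 36.0% of these FLAG-PTBP1 sites and at 18.2% of these PTBP2 sites. PTBP2 wild type did so at 23.7% and 17.8%. The PTBP2 sites were thus listed no more often in the other PTBP2 library than in the FLAG libraries, which differ from it in depth, run and genotype. Among FLAG-PTBP1 sites the share listed for PTBP2 was 5.51% at sites of 1 interval, 6.65% at 2 to 4, 11.6% at 5 to 9, 25.3% at 10 to 19, 48.6% at 20 to 49 and 83.5% (79.5 to 87.0) at 50 or more. Among PTBP2 sites the share listed for FLAG-PTBP1 was 5.25%, 20.6%, 65.4%, 90.9%, 98.1% and 98.9% (94.0 to 99.97) in the same steps. The most occupied PTBP2 sites were thus nearly all listed for FLAG-PTBP1, 90 of 91 sites of 50 or more intervals, while 335 of 401 such FLAG-PTBP1 sites were listed for PTBP2. The PTBP2 library from wild-type cortex, the deeper of the 2 PTBP2 libraries, listed 382 of those 401 sites (95.3%).

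**Figure D1:**
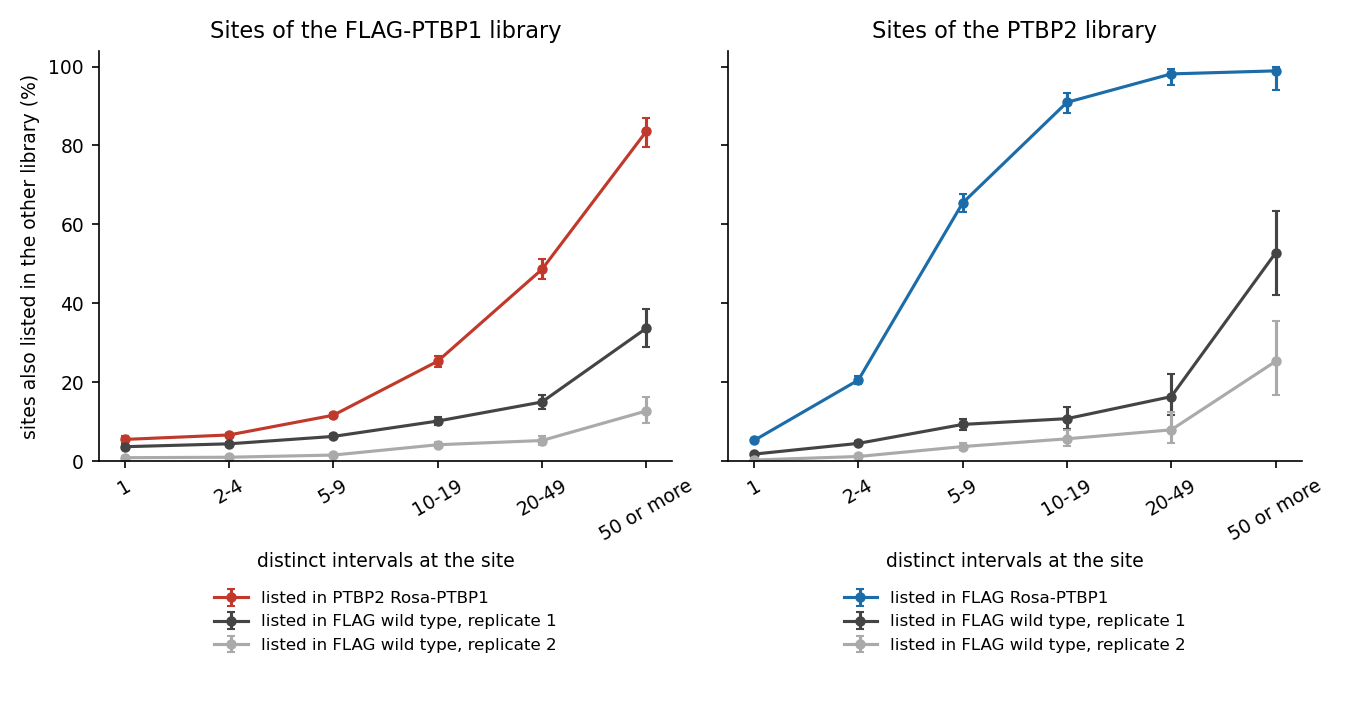
Share of sites (%) also listed in another library, by the number of distinct intervals at the site, for sites of the FLAG-PTBP1 library (left) and of the PTBP2 library (right); bars are exact 95% intervals. At 50 or more intervals 83.5% of FLAG-PTBP1 sites were listed for PTBP2 and 98.9% of PTBP2 sites for FLAG-PTBP1, against 12.7% to 52.7% in the wild-type FLAG libraries.

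The background of the FLAG antibody, measured in the same way, was lower but not small at the most occupied sites. Of the FLAG-PTBP1 sites of 50 or more intervals, 33.7% held an interval of wild-type FLAG replicate 1 and 12.7% one of replicate 2. Of the PTBP2 sites of that size it was 52.7% and 25.3%, and of those of 10 to 19 intervals 10.8% and 5.67%. These shares depend on depth: with the FLAG library drawn down to 61697 intervals, 17.7% of PTBP2 sites touched a FLAG-PTBP1 site and 17.5% of FLAG-PTBP1 sites touched a PTBP2 site.

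The proteins shared their most occupied sites. Of the 10 sites with most intervals, 8 were the same in both libraries. A minus-strand site on chromosome 19 from 5797328 to 5798137 came first in each, with 1420 intervals for FLAG-PTBP1 and 460 for PTBP2, or 6.36 and 7.46 per 1000 intervals of the library. It held 111 and 1193 intervals in wild-type FLAG replicates 1 and 2, or 2.17 and 69.6 per 1000, so in replicate 2 the share was above that of either protein. The other 3 chromosome 19 sites among these 8, between 5799253 and 5801012, likewise held 420 to 492 intervals in replicate 2.

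The second site in each library lay on the minus strand of chromosome 2 from 6779052 to 6781550, with 1091 intervals for FLAG-PTBP1 and 391 for PTBP2, while wild-type FLAG replicates 1 and 2 held 13 and 67. Per 1000 intervals of the library this was 4.89 and 6.34 for the proteins, against 0.25 and 3.91 in replicates 1 and 2. Nearby sites of this stretch held the proteins in other proportions. From 6784640 to 6786349 there were 739 intervals for FLAG-PTBP1 and 110 for PTBP2 (log2 ratio of shares 0.89, interval 0.60 to 1.20), and from 6776882 to 6778524 there were 679 and 279 (log2 -0.57, -0.77 to -0.37). Wild-type FLAG replicate 2 held 25 and 93 intervals at these sites, or 1.46 and 5.43 per 1000. At the site from 6776882 this was above FLAG-PTBP1 (3.04 per 1000) and PTBP2 (4.52 per 1000). In the pair of libraries that shares none with these, FLAG loxP against PTBP2 wild type, the same sites had log2 ratios of 0.68 and -0.55.

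Sites on chromosomes 18, 2 and 12 were prominent for PTBP2 and nearly free of wild-type FLAG intervals. These measure the background of the FLAG antibody only, and the series holds no such library for the PTBP2 antibody. On the plus strand of chromosome 18, the site from 37189292 to 37190373 held 491 FLAG-PTBP1 and 347 PTBP2 intervals, 519 in FLAG loxP and 540 in PTBP2 wild type, while wild-type FLAG replicates 1 and 2 held 2 and 0. On the plus strand of chromosome 2 from 158208887 to 158209356 there were 445 FLAG-PTBP1 and 365 PTBP2 intervals, 337 in FLAG loxP and 689 in PTBP2 wild type, and both wild-type FLAG replicates were listed at 0. The PTBP2 share of this site was 2.97-fold higher (interval 2.58 to 3.41) than the FLAG-PTBP1 share. Folds here and below are plain ratios of shares, whereas log2 ratios carry a pseudocount of 0.5 on each count, with intervals computed without it. On chromosome 12 from 90773714 to 90774197, plus strand, 156 FLAG-PTBP1 against 212 PTBP2 intervals made the PTBP2 share 4.91-fold higher (3.98 to 6.08), and FLAG loxP against PTBP2 wild type gave 140 against 272. All 3 sites had a lower FLAG than PTBP2 share in both pairs of libraries. So did every site of the 10 with most PTBP2 intervals, from which these 3 were taken. Ranking by the PTBP2 count favours a higher PTBP2 share in the Rosa-PTBP1 pair. In FLAG loxP against PTBP2 wild type, 61% of all 1278 sites listed in both had the lower share for FLAG.

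Over the 1466 sites the log2 ratio of the FLAG-PTBP1 share to the PTBP2 share, with a pseudocount of 0.5 on each count, had a median of -0.27 and quartiles of -1.12 and 0.70. The shares lay within 2-fold of each other at 766 sites (52.3%). They differed by 4-fold or more at 93 sites in favour of FLAG-PTBP1 (6.34%) and at 122 in favour of PTBP2 (8.32%). These classes are descriptions of 1 library each. With the median ratio set to 1 in place of the library totals, the split turned to 134 in favour of FLAG-PTBP1 and 75 in favour of PTBP2, and with repeated lines counted in place of distinct intervals it was 125 and 87 of 1661 sites, so which of the classes is larger depends on scaling and on how repeats are counted.

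**Figure D2:**
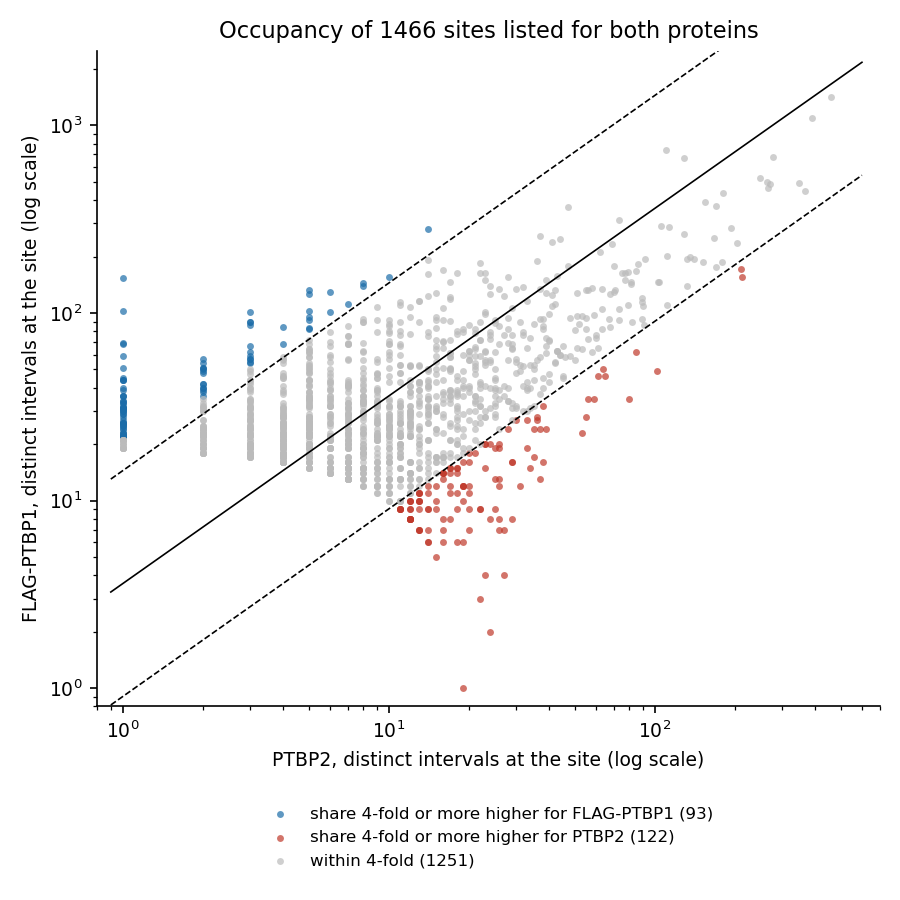
Distinct intervals for FLAG-PTBP1 (vertical, log scale) and PTBP2 (horizontal, log scale) at the 1466 sites listed for both proteins; each point is a site, the solid line marks equal shares of each library and the dashed lines a 4-fold difference without the pseudocount. The 93 sites in favour of FLAG-PTBP1 lie mostly at 1 to 3 PTBP2 intervals, whereas the 122 in favour of PTBP2 hold 11 or more.

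The 2 classes rested on different numbers of intervals. Sites in favour of FLAG-PTBP1 held a median of 40 FLAG-PTBP1 intervals (22 to 281) and 1 PTBP2 interval (1 to 14), and at 77 of the 93 there were only 1 to 3 PTBP2 intervals. Sites in favour of PTBP2 held a median of 11 FLAG-PTBP1 intervals (1 to 171) and 19 PTBP2 intervals (11 to 212). With 10 or more intervals required in each library, a rule added after the values were seen, 2 of 678 sites were in favour of FLAG-PTBP1 and 75 in favour of PTBP2; since the FLAG library is deeper, this rule by its construction leaves few sites that could favour FLAG-PTBP1. Restricting PTBP2 to its XA041 intervals gave 58 and 57 sites, and to XB028 18 and 118. Just inside the 4-fold line lay 36 FLAG-PTBP1 against 2 PTBP2 intervals (log2 2.01) and 18 against 20 (log2 -2.003), and just outside it 50 against 3 (log2 1.996) and 30 against 33 (log2 -1.99).

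Named sites were taken among the 512 with 50 or more intervals together. The highest ratio lay on the minus strand of chromosome 2 from 6699167 to 6699551, with 154 FLAG-PTBP1 intervals and 1 PTBP2 interval, a log2 ratio of 4.83 with the pseudocount. Without it the FLAG-PTBP1 share was 42.6-fold higher (7.53 to 1693), over a single PTBP2 interval. PTBP2 was nevertheless listed there in wild-type cortex, with 26 intervals, against 126 in FLAG loxP. On chromosome 17, minus strand, the site from 81981001 to 81981346 held 103 FLAG-PTBP1 intervals against 1 for PTBP2 (log2 4.25, 2.32 to 10.1), and FLAG loxP held 83 against 7 in PTBP2 wild type. This site favoured FLAG-PTBP1 by 4-fold or more in both pairs, with log2 ratios of 4.25 and 2.76.

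A site on the same chromosome and strand from 91018846 to 91019116 held 69 FLAG-PTBP1 intervals against 1 for PTBP2, and 76 in FLAG loxP against 2 in PTBP2 wild type (log2 3.68 and 4.22). When intervals up to 20 bases apart were merged it joined neighbours and its ratio was log2 0.74. On the plus strand of chromosome 13 from 83757048 to 83757207, 59 FLAG-PTBP1 intervals stood against 1 for PTBP2, and 64 in FLAG loxP against 13 in PTBP2 wild type. On chromosome 1 from 84671551 to 84671903, minus strand, 68 stood against 1, but 21 in FLAG loxP against 14 in PTBP2 wild type, which gave a log2 ratio of -0.15.

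The other 5 of the 10 highest sites held 51 to 101 FLAG-PTBP1 intervals and 1 to 3 PTBP2 intervals. Of all 10, 9 also had the higher share for FLAG in the other pair, against 39% of all 1278 sites listed in both of its libraries. Among these 9, log2 ratios of 0.27 (-0.40 to 0.99) and 1.00 (-0.001 to 2.23) had intervals that include 0. At 7 of the 10 both wild-type FLAG replicates were listed at 0, and the other 3 held 1, 1 and 5 intervals in 1 replicate.

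The lowest ratio lay on the minus strand of chromosome 15 from 95099266 to 95099480, with 13 FLAG-PTBP1 intervals and 37 PTBP2 intervals, a PTBP2 share 10.3-fold higher (5.35 to 21.1). FLAG loxP was listed at 0 there and PTBP2 wild type held 26 intervals. A second site on the same strand, from 95113704 to 95114062, held 35 against 59 (6.10-fold, 3.95 to 9.54) and 50 in FLAG loxP against 47 in PTBP2 wild type. Both sites were listed at 0 in both wild-type FLAG replicates.

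On chromosome 14, minus strand, 35 FLAG-PTBP1 intervals stood against 80 PTBP2 intervals from 100665267 to 100665768 (8.27-fold higher for PTBP2, 5.49 to 12.7), and 16 in FLAG loxP against 71 in PTBP2 wild type. On chromosome 1, minus strand, the site from 69126774 to 69127035 held 23 against 53 (8.33-fold, 5.02 to 14.2), and 6 in FLAG loxP against 24 in PTBP2 wild type. These 2 sites differed by 4-fold or more in both pairs, with log2 ratios of -3.04 in the Rosa-PTBP1 pair at each and -2.83 and -2.63 in the other.

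The most PTBP2 intervals among the 10 lowest sites were found on the plus strand of chromosome 2 from 119731329 to 119731799, with 49 for FLAG-PTBP1 against 102 for PTBP2, and 59 in FLAG loxP against 66 in PTBP2 wild type. The remaining 5 of the 10 held 16 to 28 FLAG-PTBP1 intervals and 33 to 55 PTBP2 intervals. Of the 8 listed in both libraries of the other pair, each had the lower share for FLAG there, against 61% of all 1278 sites so listed. In wild-type FLAG these 10 sites held 1 interval in all, in replicate 1.

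**Figure D3:**
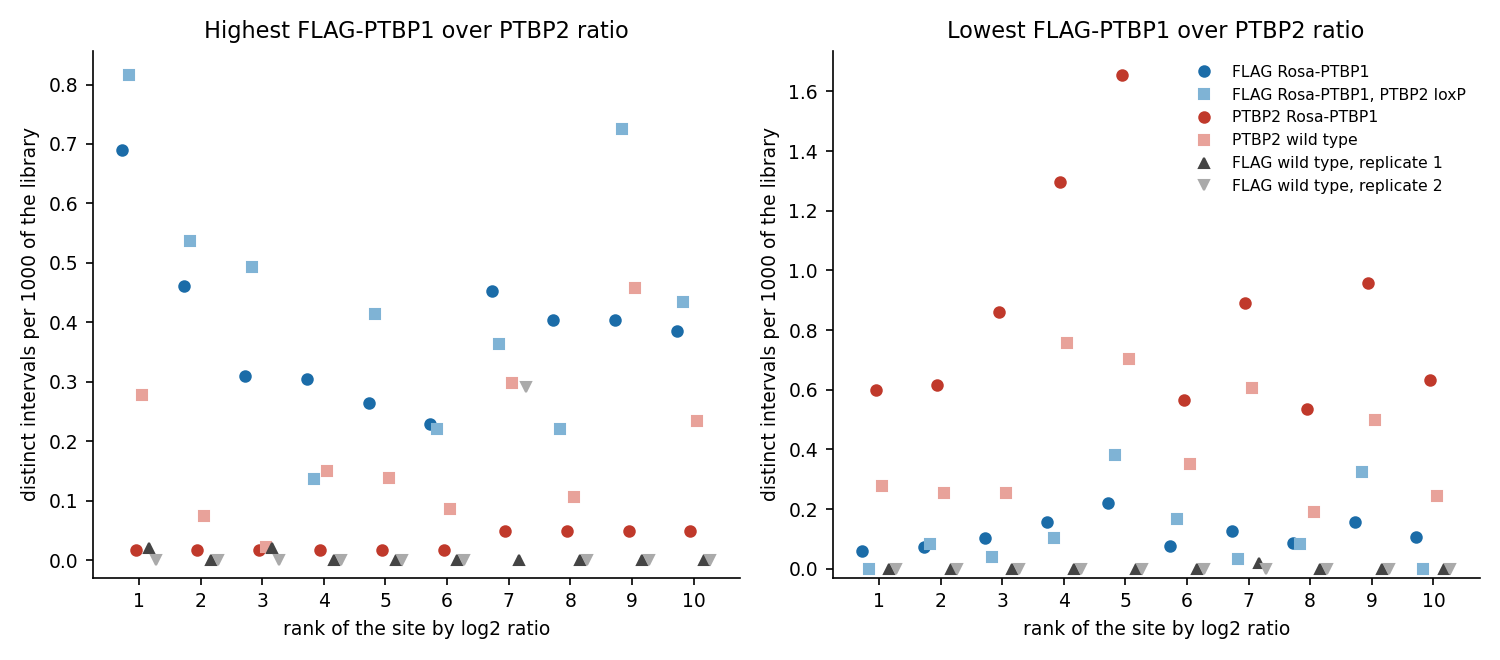
Distinct intervals per 1000 of each library (vertical) at the 10 sites with the highest (left) and the 10 with the lowest (right) FLAG-PTBP1 over PTBP2 ratio, by rank, in all 6 libraries. At the left sites PTBP2 wild type lies above PTBP2 Rosa-PTBP1, and at the right sites it lies below it, which the choice of sites by the PTBP2 Rosa-PTBP1 count favours; FLAG loxP, not used in the choice, lies below PTBP2 wild type at each site on the right.

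FLAG loxP and PTBP2 wild type gave a check that used neither library of the comparison, although their genotypes differ from it and from each other. Of the 1466 sites, 1278 were listed in both, and 39% of these had the higher share for FLAG and 61% the lower share. At the sites in favour of FLAG-PTBP1, 55 of 76 (72.4%) had the higher FLAG share and 6 (7.89%) reached 4-fold, against 3.76% of all 1278, while 4 (5.26%) reached 4-fold in the opposite direction. At the sites in favour of PTBP2, 92 of 103 (89.3%) had the lower FLAG share and 25 (24.3%) reached 4-fold, against 7.12% of all, and 0 reached it in the opposite direction. The median log2 ratio in this pair was 0.54 at the class in favour of FLAG-PTBP1 and -1.32 at the class in favour of PTBP2, against -0.31 over all 1278.

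**Figure D4:**
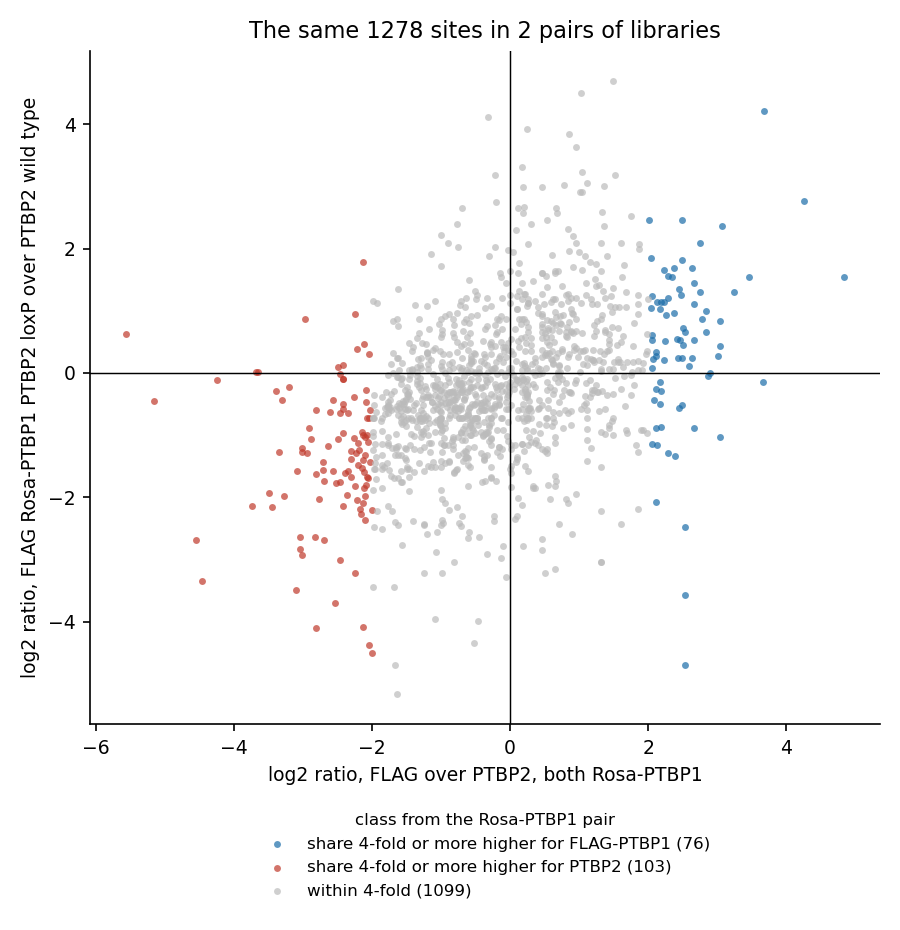
Log2 ratio of FLAG to PTBP2 shares in the Rosa-PTBP1 pair (horizontal) and in FLAG loxP over PTBP2 wild type (vertical) at 1278 sites, coloured by class in the Rosa-PTBP1 pair. Of the sites in favour of PTBP2, 92 of 103 lie below 0 on the vertical axis, and of those in favour of FLAG-PTBP1, 55 of 76 lie above it.

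At the 93 sites in favour of FLAG-PTBP1 the median count was 40 in FLAG Rosa-PTBP1, 1 in PTBP2 Rosa-PTBP1, 23 in FLAG loxP and 10 in PTBP2 wild type, and PTBP2 wild type held 5 or more intervals at 68 of them. At the 122 sites in favour of PTBP2 the medians were 11, 19, 10.5 and 17 in the same order. Over all 1466 sites they were 28, 9, 21 and 15. The classes were chosen on the counts of the first 2 libraries, and PTBP2 wild type is the deeper PTBP2 library, so its higher counts at the 93 sites are a description only. Wild-type FLAG replicates 1 and 2 had a median of 0 in both classes. They held at least 1 interval at 29 and 2 of the 93 sites (31.2% and 2.15%) and at 15 and 6 of the 122 (12.3% and 4.92%). Over all 1466 it was 281 and 111 (19.2% and 7.57%). Replicate 1 was thus listed more often at the 93 sites than at the 122, and replicate 2 less often.

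Across the 1278 sites the ratios of the 2 pairs had a Pearson correlation of 0.42 and a Spearman correlation of 0.45, and at the 534 sites with 10 or more intervals in all 4 libraries 0.55 and 0.51; the FLAG libraries of the pairs share run WA047 and the PTBP2 libraries runs XA041 and XB028. At these 534 sites the SD of the log2 ratio over sites was 0.92 for FLAG-PTBP1 over PTBP2 in Rosa-PTBP1 cortex and 0.79 for FLAG loxP over PTBP2 wild type. With the same antibody in both libraries it was 0.50 for FLAG Rosa-PTBP1 over FLAG loxP and 0.68 for PTBP2 Rosa-PTBP1 over PTBP2 wild type. Ratios of 4-fold or more were found at 44 and 19 sites between antibodies, and at 1 and 2 within an antibody. The median log2 ratios were -0.83 and -0.47 between antibodies, and -0.33 and 0.08 within an antibody, in the same order. A median further from 0 brings more sites past a fixed 4-fold line, and depth differs between the libraries. The part of each in these counts was not tested. Only the ratios between antibodies set different runs against each other, so antibody and run cannot be told apart in their larger SD. Both FLAG libraries came from WA047, and both PTBP2 libraries from the same runs in other proportions (61.3% and 30.2% XA041). The ratios also share libraries, and all but the first differ in genotype, so they are set side by side without a test.

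The most covered positions of both proteins were compared within sites. At the 678 sites with 10 or more intervals in each library, the most covered positions of FLAG-PTBP1 and PTBP2 lay a median of 13 bases apart, within 10 bases at 302 sites (44.5%, 40.8 to 48.4) and over 50 bases apart at 29.1%. Both positions lie in the same site by construction, which limits the distance, and no distance by chance was computed. FLAG-PTBP1 peaked upstream of PTBP2 at 288 sites, downstream at 368 and at the same base at 22, with a median offset of 2 bases downstream. Where all 4 libraries held 10 or more intervals (534 sites), the distance within 10 bases was found at 44.9% between antibodies in Rosa-PTBP1 cortex, 45.9% between FLAG loxP and PTBP2 wild type, 51.1% between the FLAG libraries and 49.4% between the PTBP2 libraries. At the 131 of these sites no wider than 150 bases the values were 64.1%, 62.6%, 72.5% and 64.9%, and the interval of the first (55.3 to 72.3) overlapped that of the FLAG libraries (64.0 to 80.0). Interval lengths differed between the libraries (31 and 40 bases), and their part in the offsets was not tested.

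The tested sites fell into 520 windows of 100 kb on 1 strand, and 85 windows held 5 or more sites, 775 in all. Within these windows the SD of the log2 ratio among sites was 1.18, against 1.24 over all 1466 sites, and both include counting error, which is large where a site holds few PTBP2 intervals. The lowest and highest site of a window lay a median of 3.42 log2 units apart. In 11 of the 85 windows at least 1 site was in favour of FLAG-PTBP1 and at least 1 in favour of PTBP2 by 4-fold or more.

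The closest such neighbours lay on the plus strand of chromosome 13 between 9.3 and 9.4 Mb. The site from 9318218 to 9318560 held 28 FLAG-PTBP1 intervals against 55 for PTBP2 (log2 -2.82, -3.54 to -2.15). The site from 9320130 to 9320443 held 90 against 3 (log2 2.84, 1.46 to 5.36), and the site from 9320590 to 9320846, 146 bases further on, 35 against 56 (log2 -2.52, -3.19 to -1.90). The order of high and low was the same in the other pair, where FLAG loxP against PTBP2 wild type held 5 against 57, 112 against 43 and 34 against 71 intervals (log2 -4.10, 0.65 and -1.77). Wild-type FLAG held 1 interval at these 3 sites, so the low, high, low order was found in both pairs with almost no background of the FLAG antibody. That of the PTBP2 antibody was not measured. The other close pairs, within 5 kb on 1 strand, did not repeat with both signs kept. On the minus strand of chromosome 1, the site from 170328668 to 170328913 (log2 3.25) and that from 170333747 to 170333900 (log2 -2.11) had ratios of 1.30 and 0.46 in the other pair. On the plus strand of chromosome 18, the site from 36158076 to 36158174 (log2 2.18) and that from 36159785 to 36159898 (log2 -2.04) had the order turned round, with -0.50 and 0.31. Of the 4 close pairs in all, the order was the same in the other libraries in 3, and both sites kept their signs in 2. In the chromosome 13 window a further site from 9303566 to 9304109 held 145 against 8 (log2 2.24), with 121 against 51 in the other pair.

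Along the plus strand of chromosome 16 between 6.5 and 6.6 Mb the balance also alternated. The site from 6531075 to 6531379 held 46 FLAG-PTBP1 against 65 PTBP2 intervals (log2 -2.35) and 58 in FLAG loxP against 105 in PTBP2 wild type (log2 -1.57). A group of 4 sites from 6538496 to 6539659 held 31 to 72 against 1 to 17 intervals, with log2 ratios of 0.20 to 2.67 in this pair, of which 2 had intervals that include 0, and 0.17 to 2.65 in the other. The site from 6548757 to 6548916 then held 9 against 22 (log2 -3.10) and 6 against 44 (log2 -3.49). Over the 15 of the 16 sites of this window that were listed in both other libraries, the Spearman correlation of the ratios was 0.77, and over 9 of the 12 sites of the chromosome 13 window 0.82.

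The remaining windows of the plot differed in balance. On the minus strand of chromosome 1 between 170.3 and 170.4 Mb, 19 of 22 sites had the higher share for FLAG-PTBP1, with 1051 FLAG-PTBP1 and 127 PTBP2 intervals over the sites. FLAG loxP and PTBP2 wild type held 764 and 229 intervals there, and wild-type FLAG replicates 1 and 2 held 16 and 63. For replicate 2 this was 63 of its 17129 intervals, a larger share than the 127 of 61697 for PTBP2. On the minus strand of chromosome 2 between 6.7 and 6.8 Mb, the window with most sites, 34 of 61 sites had the higher share for FLAG-PTBP1, with ratios from log2 -2.69 to 2.75. Wild-type FLAG replicate 2 held 443 of its 17129 intervals at these sites. This share was near that of FLAG-PTBP1 (6188 of 223107) and of PTBP2 (1616 of 61697). On the minus strand of chromosome 14 between 94.1 and 94.2 Mb, 6 of 17 sites had the higher share for FLAG-PTBP1. The median log2 ratio was 1.31 in the chromosome 1 window, 0.25 in that on chromosome 2 and -1.08 in that on chromosome 14. Over all 1466 tested sites it was -0.27. The windows were picked for holding calls in both directions, and their difference from all sites was not tested. The correlation with the other pair over sites was 0.48 on chromosome 1 (20 sites), 0.35 on chromosome 2 (49) and 0.35 on chromosome 14 (16).

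**Figure D5:**
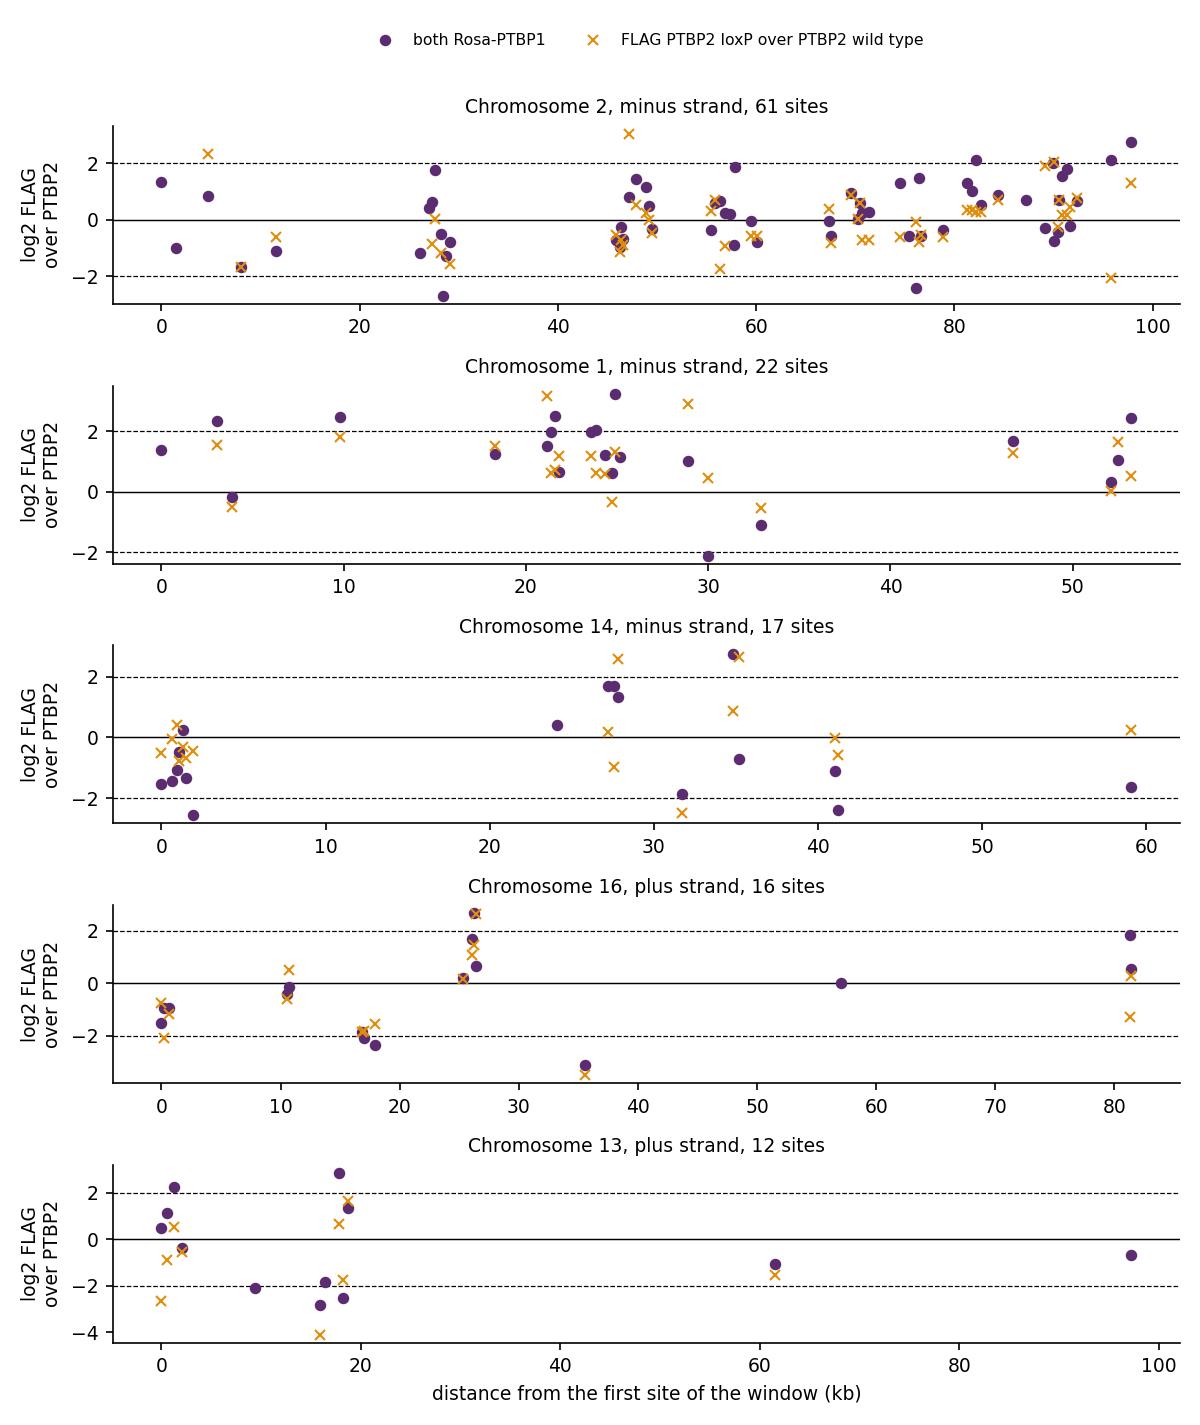
Log2 ratio of FLAG to PTBP2 shares (vertical) along 5 windows of 100 kb (horizontal, kb from the first site), for the Rosa-PTBP1 pair (circles) and FLAG loxP over PTBP2 wild type (crosses); dashed lines mark 4-fold. The windows are those with most tested sites among the 11 that hold calls in both directions, and in the chromosome 16 and chromosome 13 windows the crosses follow the circles most closely (Spearman 0.77 and 0.82).

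The neighbourhoods of the classes also differed. Of the 93 sites in favour of FLAG-PTBP1, 70 (75.3%) had 4 or more other tested sites within 50 kb on the same strand, against 30 of the 122 in favour of PTBP2 (24.6%) and 56.4% of all 1466. No other tested site lay within 50 kb of 11 sites in favour of FLAG-PTBP1 (11.8%) and 41 in favour of PTBP2 (33.6%), against 16.4% of all. Over the intervals of the surrounding 50 kb on each side, leaving the site out, the log2 ratio of FLAG-PTBP1 to PTBP2 shares had a median of 1.05 around sites in favour of FLAG-PTBP1 and -0.22 around sites in favour of PTBP2, against 0.54 around all tested sites. A positive ratio in the surroundings was found around 81 of 93 sites in favour of FLAG-PTBP1 (87.1%) and 49 of 115 in favour of PTBP2 (42.6%), against 1036 of 1444 of all (71.7%), where both libraries were listed in the surroundings. The surroundings of sites in favour of FLAG-PTBP1 held more intervals of both proteins, a median of 924 for FLAG-PTBP1 and 126 for PTBP2. Around sites in favour of PTBP2 the medians were 118.5 and 47, and around all tested sites 520.5 and 93. The part of this difference in depth in the classes was not tested.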

How the data were processed

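From mouse cortex 6 lists were used, 1 per library. Per the submitters' processing notes, reads were aligned with Bowtie to mm9. Per the file headers the deposited lists hold significant CLIP reads, and their names mention a false discovery rate; aligner version, cluster caller, its level and its background: not given in the sources used here. The deposited lists give start and end positions and read names, with no score or count. Lines with the same chromosome, strand, start and end were collapsed to 1 distinct interval. The lines kept all had different read names within a library. Read names of the collapsed lines were not counted, so whether the repeats are copies of 1 read was not tested, and what they are is not stated. Sites were merged, counted and compared with Python 3.11.15, numpy 2.4.6, pandas 2.3.3 and scipy 1.17.1; the steps were tested on simulated data. A share is a site's intervals over the library's intervals on the 12 chromosomes, and bounds are exact (Clopper-Pearson, conditional binomial for ratios, without the pseudocount). Named sites are the 10 highest and 10 lowest ratios at 50 or more intervals and the 10 most occupied per library; others named, such as neighbours and windows, were chosen after their values were seen. Members and rules were chosen with earlier results of these data known. Gene and motif analyses planned for an mm9 reference were not made.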

Additional observations from a re-analysis of the deposited data

Results flagged for a closer look

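Of the 20 sites with the highest and lowest ratios, 18 were listed in both libraries of the other pair, and 1 of these 18 changed sides between the pairs. On the minus strand of chromosome 1 from 84671551 to 84671903 the log2 ratio was 3.66 in Rosa-PTBP1 cortex, with 68 FLAG-PTBP1 intervals against 1 for PTBP2, and -0.15 for FLAG loxP over PTBP2 wild type, with 21 against 14. The difference between the pairs was not tested, the second ratio has an interval of -1.18 to 0.96, and each value is 1 library.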

How the results depend on the processing

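No paired analysis was possible because the groups compared hold 1 library each. The median log2 ratio of -0.27 became -0.052 with lines counted, -0.56 at a minimum of 10 intervals, -0.61 with a pseudocount of 5, -0.024 and -0.54 with PTBP2 run XA041 or XB028 alone, -0.74 with the FLAG library thinned and -0.97 with 10 or more intervals in each library. Sites in favour of FLAG-PTBP1 (93) numbered 40 at a minimum of 50 intervals, 3 with a pseudocount of 5, 58 and 18 with run XA041 or XB028 alone, 10 when thinned, 283 and 11 at 2-fold and 8-fold, and 2 with 10 or more in each. Sites in favour of PTBP2 (122) numbered 260 and 25 at minimums of 10 and 50, 75 with the median ratio set to 1, 57 in run XA041, 79 when thinned, 417 and 26 at 2-fold and 8-fold, and 75 with 10 or more in each. PTBP2 sites touching FLAG-PTBP1 sites (20.6%) were 19.6% with merging up to 20 bases, 21.2% and 38.03% in run XA041 or XB028 and 17.7% when thinned. They were 18.9% at an overlap of 50% of the shorter site. With 5 or more intervals required at the sites of both libraries they were 68.4%. FLAG-PTBP1 sites touching PTBP2 sites (14.5%) were 13.2%, 11.8%, 17.5%, 12.9% and 11.2% under the last 5 of these. The value of 11.2% leaves out PTBP2 sites of fewer than 5 intervals, so it does not show less sharing at better occupied FLAG-PTBP1 sites. Summits within 10 bases (44.5%) were 38.6% at a minimum of 50, 38.4% in run XA041, 29.9% when thinned, and 61.8% within 25 bases. The share of sites in favour of FLAG-PTBP1 with the same direction in the other pair (72.4%) was 86.1% (70.5 to 95.3) at a minimum of 50, 100% with a pseudocount of 5 (3 sites, 29.2 to 100) or 10 or more in each (2 sites, 15.8 to 100), 94.1% (71.3 to 99.9) in run XB028 and 88.9% (51.8 to 99.7) when thinned, wide intervals that each overlap that of the reported value (60.9 to 82.0); that of sites in favour of PTBP2 (89.3%) was 100% at a minimum of 50. Other minimums and folds change by construction which sites are counted; the cause of the other changes was not tested, and the single runs moved the median in opposite directions. Of 172 values of the 20 named sites, 167 stayed inside their counting interval, which is wide at the highest sites, 5 moved beyond it and 0 changed sign. These leave out settings in which a site gave no value, all among the 10 highest sites. They were ranks 1 and 3 in run XA041 alone, ranks 2, 4, 5, 6 and 10 in XB028 alone, and rank 6 without the uneven bins. A pseudocount of 5 took 8 of the 10 highest sites below 4-fold (log2 1.37 to 1.87) and gave the other 2 log2 2.87 and 2.32, while the 10 lowest stayed past it (-3.08 to -2.46). Merging gave the third highest site 0.74, and thinning gave 2 of the lowest -4.68 and -3.98. The alternatives with 10 or more intervals in each library, of this or the other pair, were added after seeing the data. Leaving out 12 of 293 uneven 5-Mb bins gave 85 and 121 sites in favour of FLAG-PTBP1 and PTBP2, 5-prime ends 66 and 96, and lines 125 and 87. The motif and gene alternatives were not run. Of the 93 sites in favour of FLAG-PTBP1, 52 rest on 1 PTBP2 interval.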

Other observations

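Sites of a single distinct interval made up 14.9% of the FLAG-PTBP1 sites and 46.1% of the PTBP2 sites on the chromosomes used. Such a PTBP2 site was listed on a median of 3 lines and such a FLAG-PTBP1 site on 1, and the libraries held 1.06 and 1.63 lines per distinct interval. The tested sites were spread over all 12 chromosomes, from 36 on chromosome 19 to 234 on chromosome 2, with median log2 ratios from -0.77 on chromosome 19 to 0.13 on chromosome 16. Chromosome 13 held 3 sites in favour of FLAG-PTBP1 and 13 in favour of PTBP2 among 86 tested, and chromosome 17 held 10 and 5 among 95. Over all 1466 sites the shares were 6.34% and 8.32%. These chromosomes were picked from the 12 after the values were seen, and their difference was not tested. Sites in favour of FLAG-PTBP1 had a median width of 195 bases and those in favour of PTBP2 154.5 bases.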
